A study of Mus musculus with 8 samples.

Results

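Cells take up amino acids through solute carriers, membrane proteins that are grouped into Slc families by sequence. The 7 families examined here were taken by gene symbol alone, as every gene of Slc1, Slc3, Slc6, Slc7, Slc36, Slc38 and Slc43 named by a probe set with 1 symbol. That gave 64 of the 19937 genes measured: 7 of Slc1, 2 of Slc3, 21 of Slc6, 16 of Slc7, 4 of Slc36, 11 of Slc38 and 3 of Slc43. Of these, Slc7a6os and Slc6a19os are genes named for lying opposite a transporter gene, which leaves 62 genes of carriers and their Slc3 heavy chains. The families are wider than their common name, since Slc6 also holds carriers of neurotransmitters, creatine and taurine, and Slc43a3 carries purine bases.

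Expression was measured on 8 Affymetrix arrays of R1, an embryonic stem cell line from male mouse blastocysts (129X1 x 129S1). In the 4 shMKRN1 samples the cells carried pLKO.1 with 1 hairpin against Mkrn1, an RNA-binding E3 ubiquitin ligase gene, and in the 4 shGFP controls the same plasmid with a hairpin against GFP. Both groups grew on gelatin in serum (15%) and LIF, were given 2 µg of plasmid, were kept for 4 days in 2 µg/mL puromycin and gave RNA on day 6 after transfection. They are transiently transfected, drug-selected populations with a single hairpin per gene. Nothing in the labels ties the 4 samples of each group to separate cultures, and the spread that the p-values rest on may then be technical.

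Excitatory carriers of Slc1 take up glutamate together with sodium, and the related Slc1a4 and Slc1a5 exchange small neutral amino acids. Slc3 proteins are heavy chains that bring Slc7 light chains to the cell surface, while the Slc7 cationic carriers work without them. Slc38 and Slc36 proteins move neutral amino acids with sodium or with protons, some of them at the lysosome. When amino acids run short, the kinase GCN2 raises the translation of ATF4, a transcription factor known to activate several of these genes.

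All levels below are log2 RMA values, in which dim probe sets change less than their transcripts do, and levels of different genes are not comparable. In bulk RNA, fewer cells that express a gene and less RNA per cell cannot be told apart. Array medians lay between 7.14 and 7.24, and shGFP 7 (23.2) and shMKRN1 8 (7.46) stood at the high end of their groups on the leading principal component, where the other shGFP arrays lay between -3.45 and 6.2 and the other shMKRN1 arrays between -15.2 and -6.02. Mkrn1 read 10.45, 10.45, 10.51 and 10.34 in shGFP 1, 3, 5 and 7 and 9.81, 9.81, 9.86 and 9.88 in shMKRN1 2, 4, 6 and 8. Its level in shMKRN1 was 66.2% of the control, with no overlap between the groups (limma adjusted p = 0.000767; exact two-sided permutation p = 0.0286, the smallest that 8 arrays allow). The 12 measured markers of pluripotent stem cells all lay above the range of silent receptor genes by their mean over the 8 arrays. Their mean level was 11.38 to 11.44 in shGFP and 11.39 to 11.46 in shMKRN1. Of the 12, 1 passed the test (8.33%, beside 4.49% of all genes). It was Nanog, which rose by 0.25 (limma adjusted p = 0.0256). The silent range ends at 6.50, the level below which 95% of 1190 olfactory and vomeronasal receptor genes lie.

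Of the 64 genes, 7 rose and 1 fell in shMKRN1 at a limma adjusted p of 0.05, adjusted over all 19937 genes. That is 12.5% of the families, beside 4.49% of all genes (3.66% higher and 0.838% lower). The 7 that rose were Slc6a9, Slc1a4, Slc1a1, Slc43a3, Slc6a16, Slc38a4 and Slc7a1, and the 1 that fell was Slc6a15. All 8 lay above the silent range by their mean over the 8 arrays, as did 48 of the 64. The groups did not overlap for 15 genes higher and 4 lower in shMKRN1, 29.7% of the families, where 14.1% of all genes did not overlap (10.6% higher, 3.51% lower). The median change of the 64 was 0.05, beside 0.01 for all genes, and 60.9% had a higher mean in shMKRN1, beside 52.8% of all genes.

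**Figure D1:**
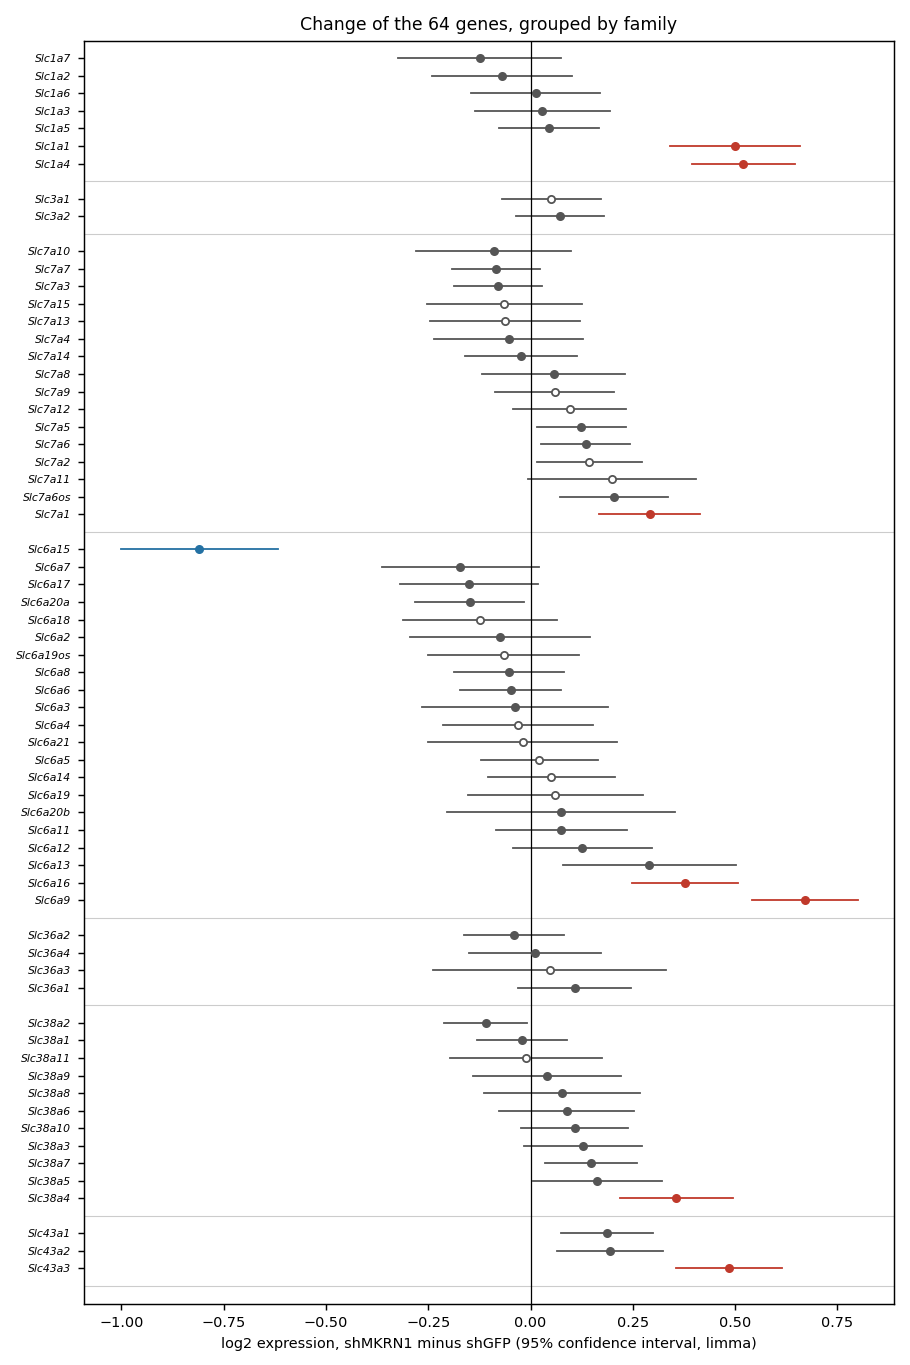
Change of each of the 64 genes (log2 expression, shMKRN1 minus shGFP, 4 arrays each) with its 95% confidence interval from limma, in the order Slc1, Slc3, Slc7, Slc6, Slc36, Slc38 and Slc43. Red marks the 7 genes that rose, blue the 1 that fell, grey those not past the test, and open circles genes within the range of silent receptors; the intervals of most genes cross 0.

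Every family except Slc3 and Slc36 held at least 1 of the genes that passed. Slc1 had 2 of 7 higher, Slc6 had 2 of 21 higher and 1 lower, Slc7 had 1 of 16, Slc38 had 1 of 11 and Slc43 had 1 of 3. The family medians ran from -0.03 in Slc6 to 0.19 in Slc43, with 0.03 in Slc1, 0.06 in Slc3 and Slc7, 0.03 in Slc36 and 0.09 in Slc38. Of these, the Slc1 median changed sign with quantile normalization (-0.0125), and medians also changed sign without single arrays: Slc1 without shGFP 1 (-0.0125) or shMKRN1 8 (-0.0094), Slc6 without shGFP 7 (0.0076) or shMKRN1 4 (0.0085) and Slc36 without shMKRN1 2 (-0.0153). Only in Slc43 did the groups not overlap for every member. These families hold few genes each and differences between them were not tested.

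Slc6a9 (Entrez gene 14664), which encodes the glycine carrier GlyT1, had the largest increase of the 64 genes. It read 8.14, 8.05, 8.08 and 8.03 in shGFP 1, 3, 5 and 7, and 8.70, 8.66, 8.87 and 8.75 in shMKRN1 2, 4, 6 and 8. Every shMKRN1 array lay above every shGFP array by more than the spread within either group (SD 0.048 and 0.088, n = 4 each). The rise was 1.59-fold (95% confidence interval 1.46 to 1.74; a log2 change of 0.67, SE 0.058; limma adjusted p = 0.000767). Slc6a5, the glycine carrier of inhibitory neurons, stayed within the silent range at 6.27 in shGFP and 6.29 in shMKRN1.

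Slc1a4 (Entrez gene 55963) encodes ASCT1, an exchanger of alanine, serine, cysteine and threonine. Its values were 8.23, 8.17, 8.10 and 8.27 in shGFP and 8.75, 8.76, 8.63 and 8.71 in shMKRN1, without overlap. It rose 1.43-fold (95% confidence interval 1.31 to 1.57; limma adjusted p = 0.00166). Slc1a5, the closely related glutamine exchanger ASCT2, differed by 0.05 (SE 0.054, 95% confidence interval -0.08 to 0.17, limma adjusted p = 0.725). Whether Slc1a4 and Slc1a5 changed differently was not tested. Slc1a1 (Entrez gene 20510), a carrier of glutamate, aspartate and cysteine, read 7.03, 7.05, 6.89 and 6.997 in shGFP and 7.66, 7.54, 7.37 and 7.40 in shMKRN1. Its 1.41-fold rise (95% confidence interval 1.27 to 1.58; limma adjusted p = 0.00541) was the only one past the test among the 5 glutamate carriers of Slc1. Slc1a3, the glutamate carrier known from glia, lay at 8.57 and 8.60.

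**Figure D2:**
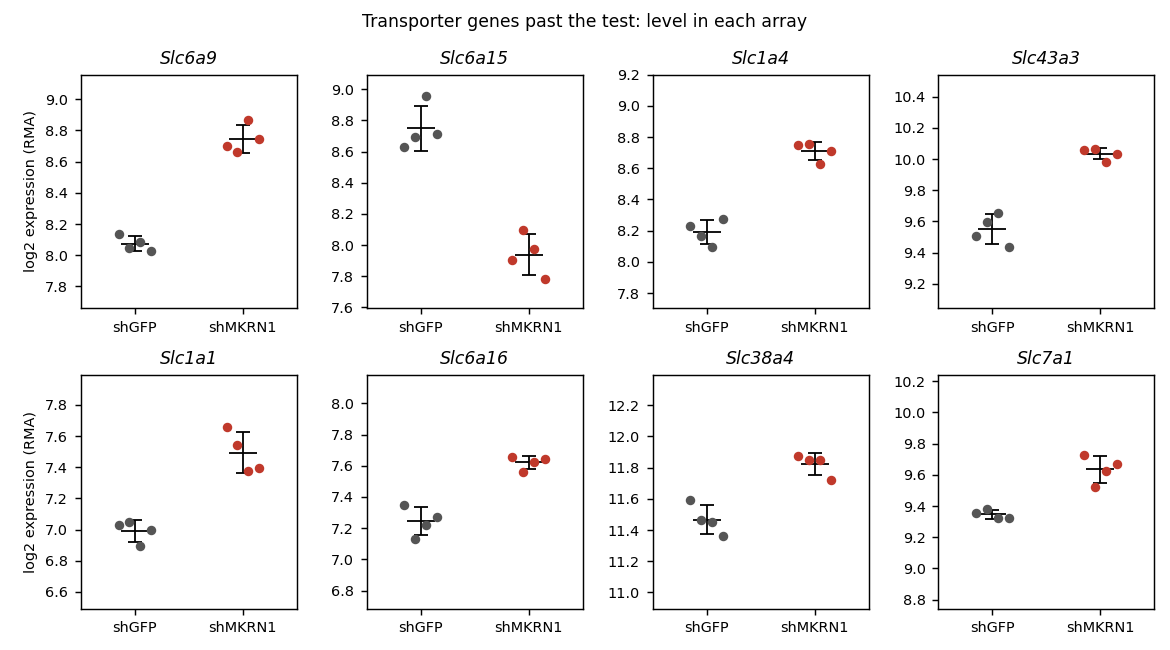
Log2 RMA level in each array (points) with the group mean and SD (bars, n = 4) for the 8 genes past the test, ordered by p; each panel spans the same height. In all 8 panels the shGFP and shMKRN1 points are apart, with Slc6a15 the one gene that is lower in shMKRN1.

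Slc43a3 (Entrez gene 58207), the purine base carrier, read 9.51, 9.60, 9.65 and 9.44 in shGFP and 10.06, 10.07, 9.98 and 10.03 in shMKRN1. It rose 1.40-fold (95% confidence interval 1.28 to 1.53; limma adjusted p = 0.00255). The large neutral amino acid carriers of the family, Slc43a1 and Slc43a2, were each higher in all 4 shMKRN1 arrays but did not pass, with changes of 0.19 (SE 0.050; limma adjusted p = 0.068) and 0.19 (SE 0.058; limma adjusted p = 0.0957). In RefSeq order Slc43a1, Rtn4rl2 and Slc43a3 follow each other. Rtn4rl2, a Nogo receptor relative between them, differed by -0.11 (limma adjusted p = 0.556).

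Slc38a4 (Entrez gene 69354) encodes a system A carrier of neutral amino acids and is imprinted in the mouse. Its level was 11.59, 11.47, 11.45 and 11.36 in shGFP and 11.87, 11.85, 11.85 and 11.72 in shMKRN1, where shMKRN1 8 was the lowest of its group. The groups did not overlap, and the rise was 1.28-fold (95% confidence interval 1.16 to 1.41; limma adjusted p = 0.0134). The call was lost without shGFP 3, shMKRN1 2 or shMKRN1 6 (limma adjusted p up to 0.0536), with a change of 0.32 to 0.40 whichever array was left out. The other system A genes are Slc38a2, the neighbour of Slc38a4 in RefSeq order, and Slc38a1. Slc38a2, the alanine and glutamine carrier, was instead lower in every shMKRN1 array, at 12.93, 12.90, 12.88 and 12.85 in shGFP against 12.77, 12.81, 12.77 and 12.77. Its change of -0.11 did not pass (SE 0.045; limma adjusted p = 0.212). For Slc38a1, a glutamine carrier, the change was -0.02 (limma adjusted p = 0.875), and -0.003 on its other probe set.

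Within the families examined here, no lysosomal carrier passed with all arrays and genes. Outside these families Mfsd12 and Slc15a4 did pass, as described below. Slc38a7, a lysosomal glutamine carrier, was higher by 0.15 without overlap (limma adjusted p = 0.137, but 0.0462 with genes under the median level removed and 0.0455 with array weights), Slc38a9, the lysosomal arginine sensor of mTORC1, by 0.04 (adjusted p = 0.847) and the proton-coupled Slc36a1 by 0.11 (adjusted p = 0.39).

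Slc7a1 (Entrez gene 11987), which encodes the arginine and lysine carrier CAT1, had the smallest of the 7 increases. It read 9.36, 9.38, 9.32 and 9.33 in shGFP and 9.73, 9.52, 9.62 and 9.67 in shMKRN1. The groups were apart and the rise was 1.22-fold (95% confidence interval 1.12 to 1.33; limma adjusted p = 0.0189). The call was lost without shGFP 3, shMKRN1 2 or shMKRN1 6 (limma adjusted p up to 0.0636) and with quantile normalization (0.0525). Slc7a3, which encodes the related cationic carrier CAT3, lay at 11.95 in shGFP and 11.87 in shMKRN1, a change of -0.08 (95% confidence interval -0.19 to 0.03; limma adjusted p = 0.42). Slc7a2, the remaining carrier of the CAT type with a settled role in arginine uptake, averaged 6.41 and 6.56 at the edge of the silent range.

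None of the heavy chains or their light chains passed, although single other settings called Slc7a5 (intensity trend, limma adjusted p = 0.0372), Slc7a6 (array weights, 0.0441) and Slc7a11 (array weights, 0.0365). Slc3a2, the heavy chain CD98, read 12.86, 12.84, 12.75 and 12.85 in shGFP and 12.93, 12.87, 12.91 and 12.88 in shMKRN1. All 4 shMKRN1 values were the higher ones, yet the change was 0.07 (95% confidence interval -0.03 to 0.18; limma adjusted p = 0.468). Its light chain for large neutral amino acids, Slc7a5, differed by 0.12 (95% confidence interval 0.02 to 0.23; limma adjusted p = 0.194), also without overlap. Of the light chains that exchange cationic for neutral amino acids, Slc7a6 differed by 0.13 (limma adjusted p = 0.156) and Slc7a7 by -0.08 (adjusted p = 0.394). Slc7a8 (0.06) and Slc7a10 (-0.09), which exchange neutral amino acids, had overlapping groups. Slc3a1, the heavy chain of the renal cystine exchanger, and its light chain Slc7a9 lay within the silent range, with means of 5.99 and 6.04 for Slc3a1 and 6.32 and 6.38 for Slc7a9. Slc7a11, the light chain that imports cystine for glutamate, was also within it, at 5.87, 5.55, 5.61 and 5.64 in shGFP and 5.95, 5.97, 5.92 and 5.63 in shMKRN1, too dim for a change to be read. Slc7a6os, which is not a carrier, was higher by 0.20 without overlap (limma adjusted p = 0.0868).

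Slc6a15 (Entrez gene 103098), a sodium-dependent carrier of branched-chain amino acids and proline known from brain, had the largest change of the families in either direction. It read 8.63, 8.70, 8.96 and 8.71 in shGFP 1, 3, 5 and 7, and 7.91, 8.09, 7.98 and 7.78 in shMKRN1 2, 4, 6 and 8. The lowest control lay well above the highest knockdown array, and the mean fell by 0.81 to 57.0% of the control (SE 0.086 in log2 units; limma adjusted p = 0.00154). Slc6a17, the vesicular relative of Slc6a15, differed by -0.15 with overlapping groups (limma adjusted p = 0.312). The mean level of 10 measured markers of neural cells was 7.28 to 7.43 in shGFP and 7.15 to 7.25 in shMKRN1, without overlap. Of these 10, Neurod1 fell by 0.67 and 9 did not pass (10.0% past the test, beside 4.49% of all genes). Only 2 of the 10, Map2 and Gad1, had higher means in shMKRN1 (changes of 0.03 and 0.06), and the median change was -0.14. Pax6 had a change of -0.19 without overlap (limma adjusted p = 0.0926). Among the neural markers Dcx and Slc17a6 lay within the silent range. The part of such cells in the Slc6a15 result was not tested.

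Slc6a16 (Entrez gene 381884), a member of the neurotransmitter carrier family with no settled substrate, rose 1.30-fold (95% confidence interval 1.19 to 1.42; limma adjusted p = 0.00722). It read 7.35, 7.13, 7.22 and 7.27 in shGFP and 7.66, 7.56, 7.62 and 7.65 in shMKRN1, so the groups did not overlap. Its neighbour in RefSeq order, Slc6a21, was within the silent range at 6.27 and 6.25. The GABA carrier gene Slc6a13 differed by 0.29 (SE 0.095) with overlapping groups (limma adjusted p = 0.122). Slc6a20a, a proline carrier, was lower by 0.15 without overlap (limma adjusted p = 0.204). Among Slc6 genes with other substrates, the creatine carrier gene Slc6a8 averaged 11.41 in shGFP and 11.36 in shMKRN1, and the taurine carrier gene Slc6a6 10.77 and 10.73. Of the 21 Slc6 genes, 7 lay within the silent range, among them the serotonin carrier gene Slc6a4.

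Relatives that share a substrate or a locus were also set against each other within each array, in 6 pairs formed after the values were seen and therefore without a test. With the shGFP mean of each difference set to 0, the difference Slc7a1 minus Slc7a3 lay between -0.07 and 0.06 in shGFP and between 0.31 and 0.44 in shMKRN1. Slc38a4 minus Slc38a2 lay between -0.07 and 0.08 in shGFP and between 0.38 and 0.53 in shMKRN1. For Slc1a4 minus Slc1a5 the ranges were -0.12 to 0.13 and 0.35 to 0.62, and for Slc43a3 minus Slc43a1 -0.13 to 0.06 and 0.21 to 0.37. Each of the 6 pairs set a gene past the test against one that was not, so these ranges describe that choice. Such a difference within an array does not change when all values of that array are shifted by the same amount. It can change with quantile normalization, under which the Slc7a1 change went from 0.29 to 0.23 and that of Slc7a3 stayed at -0.08.

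**Figure D3:**
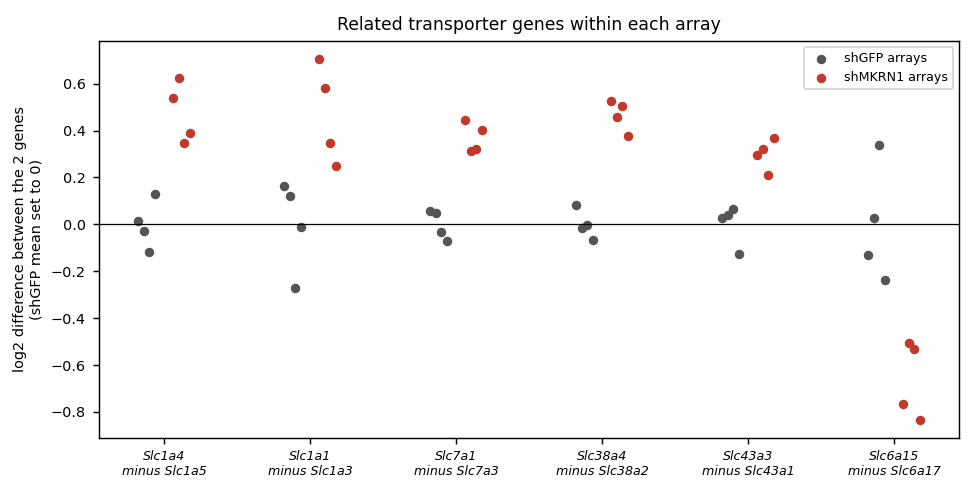
Log2 difference between 2 related genes in each array, with the shGFP mean set to 0 (grey, 4 shGFP arrays; red, 4 shMKRN1 arrays; horizontal positions within a group only separate the points). The shMKRN1 points lie above the shGFP points in the first 5 pairs and below them for Slc6a15 minus Slc6a17, which differed by -0.66.

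Of 9 carrier genes known as ATF4 targets, 3 rose and none fell (33.3% past the test, beside 4.49% of all genes). These were Slc6a9, Slc1a4 and Slc7a1, and the others were Slc1a5, Slc3a2, Slc7a3, Slc7a5, Slc7a11 and Slc38a2, whose values are given above. The median change of the 9 was 0.12, beside 0.01 for all genes, and for 5 of them the groups did not overlap with shMKRN1 higher, for 1 with shMKRN1 lower (66.7%, beside 14.1% of all genes). The remaining 4 carriers that rose, Slc1a1, Slc43a3, Slc6a16 and Slc38a4, were not on that list. Atf4 itself rose by 0.31 (SE 0.054, limma adjusted p = 0.0134). It was the only gene past the test among 33 measured genes of amino acid sensing (3.03%, beside 4.49% of all genes). These 33 cover GCN2, the sestrins, GATOR, the Rag GTPases and mTORC1. The arrays measure Atf4 mRNA and not its protein, and the part of ATF4 in the carrier results was not tested.

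ATF4 binds as a dimer to an element with the core TGATGNAA, so this core was searched on both strands in RefSeq promoter windows of GRCm38.p6, from 250 bases before to 50 after the annotated start. Windows were found for 47 of the 64 genes, 6 of them among the 8 that passed the test. The core was present for 4 of the 47 (8.51%), beside 563 of the 15562 measured genes with a window (3.62%). The 4 were Slc1a4, Slc7a11, Slc7a7 and Slc6a21, so of the 6 genes past the test with a window only Slc1a4 had it. Sequence outside these windows was not searched, so a gene without the core here may hold it elsewhere. Of the known ATF4 targets, Slc1a5, Slc7a3 and Slc7a5 had no window. The windows of Slc1a4 and Slc7a11 are shown because the first gene rose and the second, with a pair of matches, lay within the silent range. Capitals mark the core, read as TTNCATCA where it lies on the opposite strand. In Slc1a4 (chr11:20332664-20332963, minus strand) the match starts at position -4 from the annotated start, and in Slc7a11 (chr3:50443564-50443863, minus strand) the matches start at -66 and -47.
Slc1a4: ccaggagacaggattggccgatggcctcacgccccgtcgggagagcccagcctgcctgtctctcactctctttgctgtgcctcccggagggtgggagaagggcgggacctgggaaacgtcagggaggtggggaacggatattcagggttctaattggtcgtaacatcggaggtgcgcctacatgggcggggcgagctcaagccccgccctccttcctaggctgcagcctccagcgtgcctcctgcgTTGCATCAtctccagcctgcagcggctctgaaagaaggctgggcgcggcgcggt
Slc7a11: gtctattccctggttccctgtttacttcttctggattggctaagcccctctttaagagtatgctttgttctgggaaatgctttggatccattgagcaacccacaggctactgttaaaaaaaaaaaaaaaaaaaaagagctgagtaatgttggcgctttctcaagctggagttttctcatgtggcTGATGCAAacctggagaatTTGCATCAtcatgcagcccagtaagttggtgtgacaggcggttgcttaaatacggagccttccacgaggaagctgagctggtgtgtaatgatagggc

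The matches of the other genes are given with their flanks for comparison. The stretch of Slc6a21 lies at chr7:45282834-45282863 on the plus strand, and those of Slc7a7 at chr14:54418067-54418096 and chr14:54417927-54417952 on the minus strand. The letters are a description of these windows and do not show that a factor binds there.
Slc6a21: agaggtgagaaTTACATCAagtgggcctcc
Slc7a7, upstream match: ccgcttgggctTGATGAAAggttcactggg
Slc7a7, downstream match: tagaagcTGATGCAAcagcttccccg

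Outside the 7 families, 23 other carriers of amino acids and peptides were measured, of which 3 rose and 1 fell (17.4%, beside 4.49% of all genes). Mfsd12, which is needed for cysteine import into lysosomes and melanosomes, rose by 0.43 (SE 0.044; limma adjusted p = 0.00154). Slc16a10, the aromatic amino acid carrier TAT1, rose by 0.33 (limma adjusted p = 0.0327) and Slc15a4, a lysosomal histidine and peptide carrier, by 0.22 (limma adjusted p = 0.0407). Slc25a15, the mitochondrial ornithine carrier, fell by 0.30 (limma adjusted p = 0.0139). The median change of the 23 was 0.0131, beside 0.0077 for all genes.

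Of 14 measured protein-coding neighbours of the 8 carriers past the test, 1 passed, where 4.49% of all genes did. It was Ubl3 beside Slc7a1, which rose by 0.20 (limma adjusted p = 0.0417).

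Markers of other cell types that such cultures can hold were read in the same way. The mean level of 7 measured mesendoderm markers, of 8 listed, was 7.09 to 7.32 in shGFP and 7.71 to 8.01 in shMKRN1, without overlap. Of these 7, 4 were higher past the test (57.1%, beside 4.49% of all genes), and Mesp1 lay within the silent range. Mixl1 had the largest increase of all genes measured, at 1.66. For 8 trophectoderm markers the ranges overlapped (8.69 to 9.02 and 8.94 to 9.27). Past the test 2 were higher (25.0%), Tfap2c and Eomes, and Elf5 lay within the silent range. Eomes, at 0.96, is also 1 of the 4 mesendoderm markers that rose. For 10 fibroblast markers the ranges also overlapped (7.11 to 7.23 and 7.20 to 7.39), with 3 higher (30.0%), while Lum and Postn lay within the silent range. For 8 primitive endoderm markers the ranges were 7.65 to 7.81 and 7.62 to 7.77, none passed, and Afp lay within the silent range. The part of such cells in the carrier results was not tested.

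Among the 8 genes past the test, 6 kept their call whichever array was left out. These were Slc6a9, Slc6a15, Slc1a4, Slc43a3, Slc1a1 and Slc6a16, with limma adjusted p-values of at most 0.0314. Without both shGFP 7 and shMKRN1 8, a choice made after seeing the data, 6 genes were higher and 1 lower, with Slc7a1 lost at a limma adjusted p of 0.0509.

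**Figure D4:**
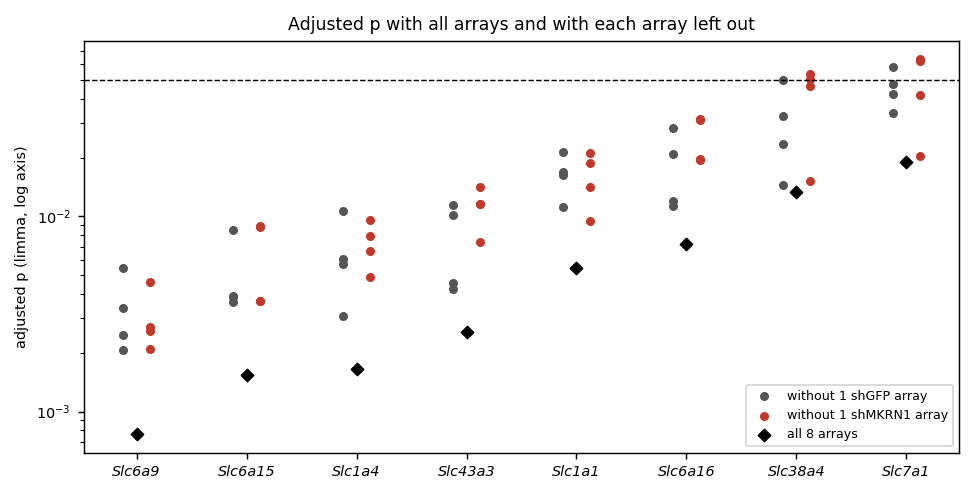
Limma adjusted p (log axis) of the 8 genes past the test with all 8 arrays (diamonds) and with 1 array left out (grey, a shGFP array; red, a shMKRN1 array); the dashed line is 0.05. Points of Slc38a4 and Slc7a1 lie on both sides of the line, and those of the other 6 genes below it.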

How the data were processed

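The deposited table holds log2 expression values of 34760 probe sets, made by the authors with RMA per the submitters' processing notes, with no version given in the sources used here. RMA removes most differences that affect all genes alike. Samples were grouped by the hairpin in their titles, and their numbers are names. Of the probe sets, 21640 had 1 gene symbol in the platform annotation, 1321 several and 11799 none. The brightest probe set per symbol was kept. All 64 genes matched the RefSeq gene table of GRCm38.p6 by Entrez number, which was used for names and gene order only.

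Groups were compared with limma 3.58.1 in R 4.3.3 (lmFit, eBayes, 6 residual and 4 prior degrees of freedom, no filter), two-sided, with Benjamini-Hochberg adjustment over 19937 genes. The fit was tested on simulated data with noise drawn independently for each gene, and no result here rests on that run. Exact permutation tests ran over 70 assignments of arrays. The number of arrays limits the precision. The family members, gene lists and tests were chosen with earlier results of these data known. Named are all members past the test, the next 10 by p, heavy and light chains, the brightest member per family and known ATF4 targets. Slc1a3, Slc6a4, Slc6a5, Slc6a6, Slc6a17, Slc6a21, Slc38a1, Slc38a9 and the neighbours were added after their values were seen. So were the markers Dcx, Slc17a6, Neurod1, Map2, Gad1, Pax6, Nanog, Tfap2c, Eomes, Mixl1, Mesp1, Elf5, Lum, Postn and Afp. Alternatives covered scaling, a level filter, probe set choice, variance model, array weights and single arrays.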

Additional observations from a re-analysis of the deposited data

Results flagged for a closer look

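In 6 of the 60 groups of 4 arrays examined (the 29 named family members and Mkrn1, 2 groups each), 1 array lay far from the others. Chance marks about 1 in 20 such groups. In shMKRN1, Slc38a2 read 12.81 in shMKRN1 4 against 12.77 in each of the others, and Slc7a9 read 6.23 in the same array against 6.42 to 6.43. Array shMKRN1 8 was low for Slc38a4, at 11.72 against 11.85 to 11.87, and for Slc7a11, at 5.63 against 5.92 to 5.97. In shGFP, Slc3a2 read 12.75 in shGFP 5 against 12.84 to 12.86, and Slc7a7 read 11.81 in shGFP 7 against 11.73 to 11.74. Of these genes Slc38a4 passed the test, and without shMKRN1 8 its change was 0.40.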

How the results depend on the processing

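The counts over the families moved little: 5 to 8 genes higher and 1 lower without each array in turn. They were 6 to 10 higher and 1 or 2 lower under the other settings except array weights, which gave 13 higher and 1 lower. With those weights 2757 of all 19937 genes passed, where 896 did in the main fit. With an intensity trend 2 were lower, the second being Slc38a2 (limma adjusted p = 0.0234). The total of 896 genes changed more. It was 309 to 852 without 1 array, with 505 and 324 without shGFP 1 and 3 and 353, 387 and 309 without shMKRN1 2, 4 and 6. It was 521 with every probe set tested separately, 1549 with a trend, 1595 with genes under the median level removed and 2757 with array weights. The 896 genes split into 729 higher and 167 lower. That split was 445 to 192 with median centring, 617 to 431 with quantile normalization and 1933 to 824 with array weights. Quantile normalization took the Slc43 median from 0.19 to 0.13, and that level filter, which keeps 28 of the 64 genes and so drops Slc1a1 and Slc6a16, gave a median of 0.10 over those 28 (0.05 over the 64) and of 0.12 over the Slc7 genes kept (0.06 before), while the median of all genes went from 0.0077 to 0.0407. Changes of sign arose for Slc1a5 (-0.0125 with quantile normalization) and Slc7a8 (-0.0174 without shGFP 7), neither past the test. Mkrn1 kept its direction and call under each of these settings, at -0.64 to -0.57. Calls were gained by Slc43a1 (limma adjusted p = 0.0189), Slc43a2 (0.0334), Slc38a7 (0.0462) and Slc7a6os (0.0296) under the level filter. Under the trend, Slc43a1 (0.0389), Slc7a5 (0.0372) and Slc7a6os (0.0455) gained one besides Slc38a2, and with array weights Slc43a1 (0.0119), Slc38a7 (0.0455), Slc6a13 (0.0136), Slc7a6 (0.0441), Slc7a11 (0.0365) and Slc7a6os (0.0133). The cause of these shifts was not tested beyond what the settings themselves remove. No paired analysis was made, because the groups share no replicate numbers and the labels name no pairs. Any pairing of the samples is therefore left out of the tests. Dim genes are limited by signal over background, as 16 of the 64 lay within the silent range.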
